A study of Cucumis sativus with 12 samples.

Results

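Genes for the photosystems and their light-harvesting antennae were followed in cucumber leaves through 24 h of cold. They were taken by the words of the deposited gene descriptions: a chlorophyll a-b binding protein, photosystem I or II, an oxygen-evolving enhancer, an early light-induced protein, plastocyanin or cytochrome b6. This gave 48 of the 24317 genes of the table. By description and KEGG orthology entry, 18 of them encode antenna proteins (11 of photosystem II, the LHCBs, and 7 of photosystem I, the LHCAs) and 16 encode nuclear subunits of the reaction centre complexes (8 of photosystem I, 5 of photosystem II and 3 oxygen-evolving enhancers). The others were 1 early light-induced gene, 2 genes of electron carriers, 4 genes of assembly and repair, and 7 loci that carry the names of plastid genes and were kept apart. The KEGG pathway column placed 27 of the 48 in photosynthesis and 18 in antenna proteins, and gave neither to 3.

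Antenna proteins bind chlorophyll and carry the absorbed light energy to the reaction centres, where charge is separated and electron transport begins. Photosystem II draws electrons from water with the help of the oxygen-evolving enhancers, and the cytochrome b6-f complex and plastocyanin pass them on to photosystem I. In land plants the antenna proteins and most small subunits are encoded in the nucleus, the central chlorophyll-binding subunits in the plastid, and transcripts of the antenna genes are well known to follow light and the circadian clock.

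Leaves came from seedlings with 3 true leaves of the inbred line JinYan No. 4 and were sequenced with RNA-seq, with 3 libraries at each of 0, 3, 12 and 24 h (12 in all), described by the study as biological replicates. The 0 h leaves came from seedlings not yet moved to the cold. The other leaves came from seedlings kept at 15 °C by day and 6 °C by night, in days of 12 h, for 3, 12 or 24 h. The only control was 0 h, so cold cannot be told apart from seedling age, the change in day length and, at 3 h and 12 h, the time of day, and the temperature at sampling may also differ between times. Whether the libraries of a time came from separate seedlings is not stated further, and p-values measure the spread between these libraries. In leaf RNA, fewer cells of a type and less RNA per cell cannot be told apart.

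Levels are FPKM, fragments scaled to the length of the transcript and to the mapped fragments of the library. The files hold no read numbers, and depth relative to 0 h replicate 1 was 0.912 to 1.28. Differences are on the log2(FPKM + 0.5) scale, with the standard error from limma over all 12 libraries. A gene was called where its Benjamini-Hochberg adjusted p over the 17497 genes tested was under 0.05 and its log2 difference was above 1 or below -1, and 47 of the 48 members were tested. Between libraries of 1 time, log2 values correlated at 0.983 to 0.990. The 5 mesophyll markers, rubisco small chain and activase genes, were abundant, with a summed level of 31923 FPKM at 0 h, 23203 after 3 h, 39671 after 12 h and 34559 after 24 h. The 21 xylem markers summed to 68.4 to 86.8 FPKM in all libraries. The 14 phloem markers summed to 490.3 to 818 FPKM at 0 h, 339.9 to 479 after 3 h, 395 to 439 after 12 h and 388 to 540.4 after 24 h, with the phloem lectins near 0. The 6 epidermis markers summed to 43.6 to 45.1, 102 to 112, 29.9 to 39.1 and 11.4 to 14.2 FPKM, mostly from a 3-ketoacyl-CoA synthase. The part of these markers in the results was not tested.

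One library stood apart for these genes. Among the 24 h libraries, replicate 2 had the highest value for all 18 antenna genes and all 15 tested reaction centre genes, against 27.4% of all genes tested. The other times had a leading library as well: replicate 3 at 0 h for 17 of the 18 antenna genes, replicate 1 at 3 h for all 18 and replicate 2 at 12 h for 17. The members of a library thus varied together and are not independent of each other, and the scatter was widest at 24 h, where the median coefficient of variation of the antenna genes was 24.6% against 4.78% at 0 h. Results at 24 h are therefore also given without replicate 2.

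Most antenna genes were higher than at 0 h at each later time, furthest at 12 h, and no reaction centre gene passed the fold threshold (the plot of log2 differences by role). Summed over the 18 antenna genes, the level was 8449 ± 335 FPKM at 0 h, 16241 ± 1021 after 3 h, 44535 ± 4960.4 after 12 h and 20066 ± 4558 after 24 h (mean ± SD, n = 3), or 17439.6 at 24 h without replicate 2. Summed over the 16 reaction centre genes it was 16727 ± 739, 13895 ± 799.9, 23521 ± 1934 and 15324 ± 2420.4 FPKM, or 13944 at 24 h without replicate 2. The antenna sum was thus 5.27 times the 0 h level at 12 h, and the reaction centre sum 1.41 times. Antenna over reaction centre FPKM, which does not change with the scaling of a library, was 0.501 to 0.512 at 0 h, 1.13 to 1.19 after 3 h, 1.84 to 1.96 after 12 h and 1.24 to 1.40 after 24 h, with no overlap between 0 h and any later time (the plot of summed levels and ratios). At 0 h the reaction centre genes had the larger sum in each library, and at each later time the antenna genes did.

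**Figure D1:**
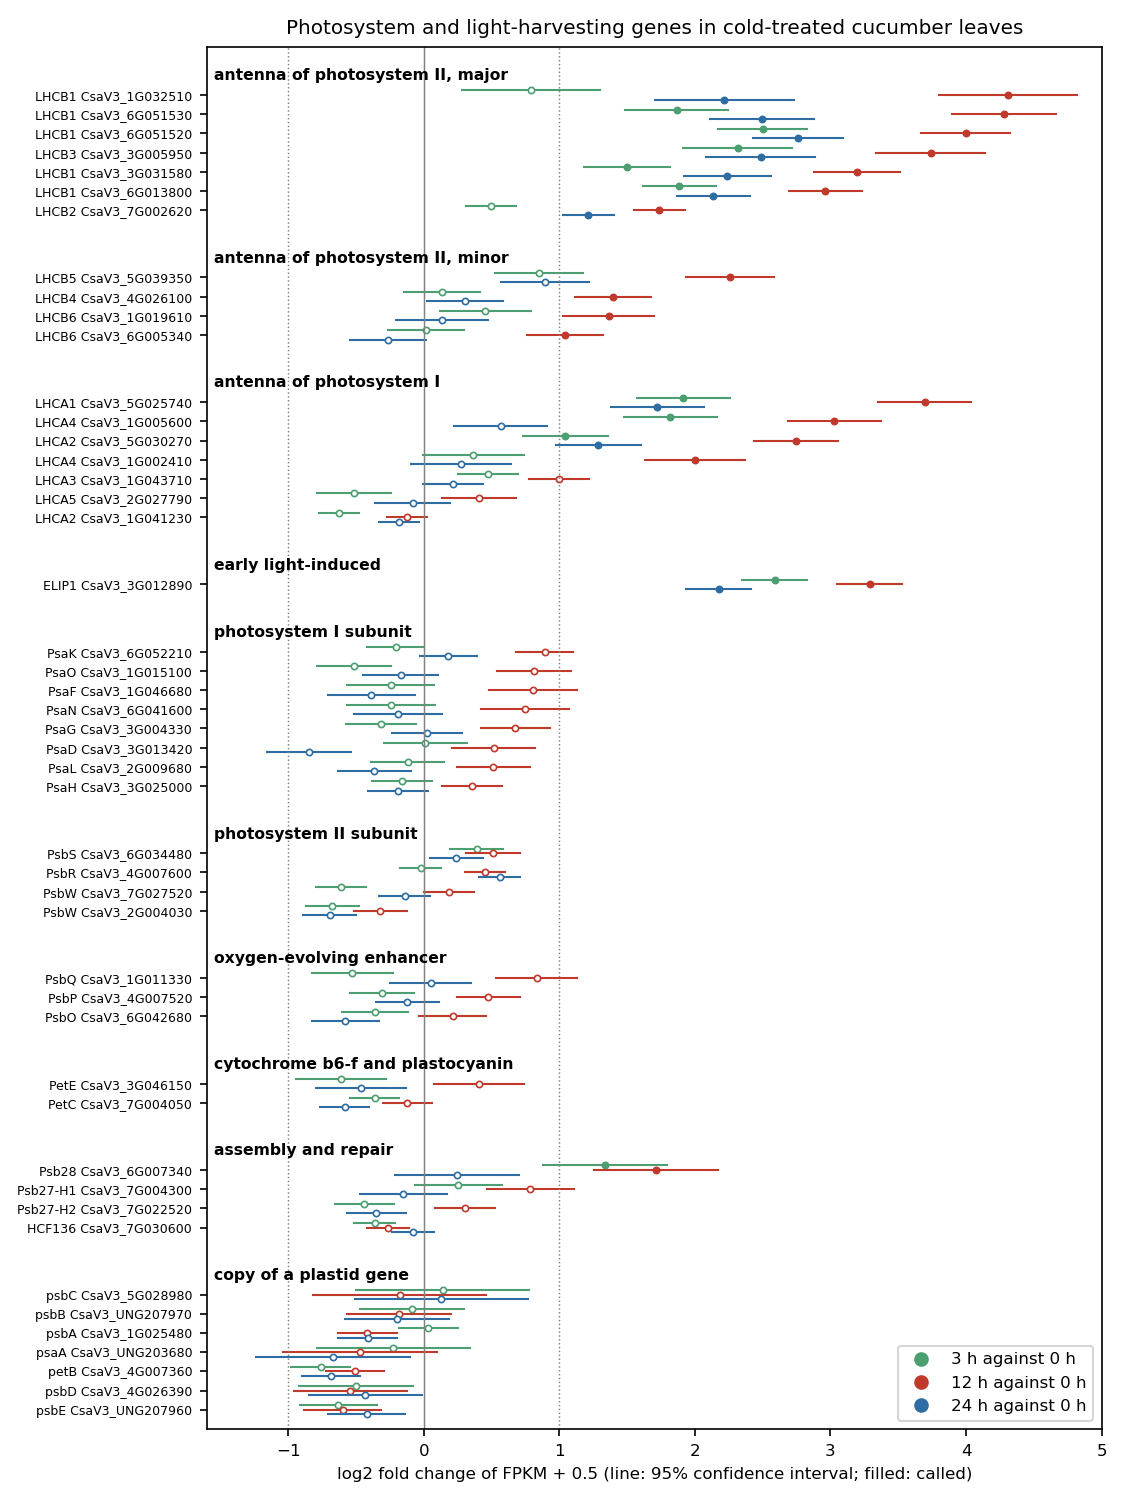
Log2 differences of FPKM + 0.5 against 0 h (x axis) for the 47 tested members by role (y axis), at 3 h (green), 12 h (red) and 24 h (blue), with 95% confidence intervals as lines, called differences as filled points and dotted lines at -1 and 1. The photosystem II antenna genes lie between 1.04 and 4.31 at 12 h, and the reaction centre genes between -0.32 and 0.89.

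**Figure D2:**
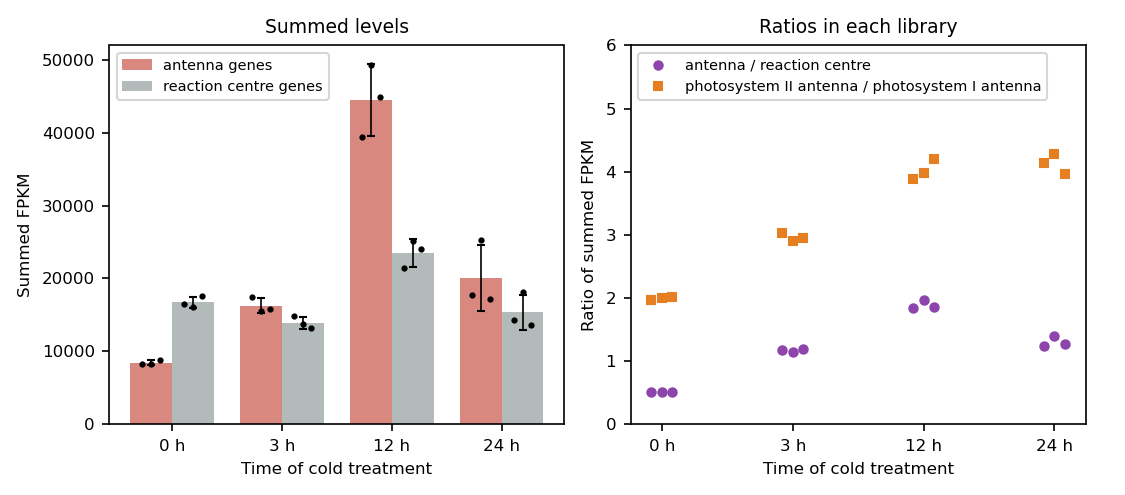
Left, FPKM summed over the 18 antenna genes (red) and the 16 reaction centre genes (grey) by time, with bars for the mean of 3 libraries, error bars for the SD and points for libraries. Right, the ratio of these sums (circles) and of the photosystem II to the photosystem I antenna sum (squares) in each library, where the antenna to reaction centre ratio goes from about 0.505 at 0 h to 1.89 at 12 h.

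In counts, 8 of 18 antenna genes were called higher after 3 h, when 9.89% of all genes tested were, 15 of 18 after 12 h (9.62% of all genes) and 9 of 18 after 24 h (13.2%), and none was called lower at any of these times. The 3 comparisons share the 0 h libraries. The median log2 difference of the antenna genes was 0.82 after 3 h, 2.50 after 12 h and 1.06 after 24 h, against 0.03, -0.23 and -0.17 over all genes. None of the 15 tested reaction centre genes was called at any of the 3 times, when 15.3%, 26.3% and 31.3% of all genes were called in either direction. Their medians were -0.24, 0.51 and -0.17. After median-ratio rescaling, which removes the shift of the all-gene median at 12 h and 24 h, 5 reaction centre genes were called higher at 12 h, with log2 differences of 1.01 to 1.16, and the 24 h median of the reaction centre genes was 0.04. With quantile normalization their medians were -0.26, 0.22 and -0.33. Without 24 h replicate 2, 1 reaction centre gene (PsaD) was called lower at 24 h. The reaction centre genes that passed an adjusted p under 0.05 at any fold were 1 higher and 7 lower after 3 h, 12 higher and 1 lower after 12 h, and 2 higher and 5 lower after 24 h. The shares of all genes doing so were 30.4% and 26.2%, 24.5% and 44.7%, and 29.1% and 43.5%. Without 24 h replicate 2, the 24 h counts became 1 higher (PsbR) and 10 lower.

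These genes took a larger place at 12 h among the most abundant transcripts. By mean FPKM, 20 of the 100 highest genes of the leaf were members at 0 h (5 antenna, 13 reaction centre), 23 after 3 h, 31 after 12 h (14 antenna, 14 reaction centre) and 23 after 24 h. All 48 members together held 4.76% to 5.20% of a library's FPKM at 0 h and 11.2% to 13.5% at 12 h. The mean was highest at 12 h for 17 of the 18 antenna genes and 13 of the 15 tested reaction centre genes, and so it was for 16.1% of all genes tested.

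The largest differences against 0 h at 12 h and 24 h were in LHCB1, which with LHCB2 and LHCB3 forms the trimeric major antenna of photosystem II. Of the 5 LHCB1 genes, 4 were called higher at 3 h and all 5 at 12 h and at 24 h, against 9.89%, 9.62% and 13.2% of all genes. Summed over the 5 genes, LHCB1 in replicates 1, 2 and 3 was 1721, 1732 and 1872 FPKM at 0 h, 7028, 6114 and 6317 after 3 h, 19077, 24298 and 22213 after 12 h and 8013, 12042 and 7620.4 after 24 h. No 2 times overlap, and the 24 h libraries other than replicate 2 lie closest to 3 h. The genes are close relatives, and CsaV3_6G051520 and CsaV3_6G051530 have neighbouring identifiers. The study does not say how reads that fit several genes were shared out, so the split between the 5 genes is less certain than their sum.

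CsaV3_6G051520 had 255, 258 and 279 FPKM at 0 h, 1599, 1435 and 1465 after 3 h, 3746, 4716 and 4279 after 12 h and 1599.8, 2414 and 1492 after 24 h. It was 5.67-fold higher in mean FPKM at 3 h and 16.1-fold at 12 h, with log2 differences of 2.50 ± 0.15 (SE, limma adjusted p = 8.16e-08) at 3 h and 2.76 ± 0.15 (8.29e-09) at 24 h, and an adjusted p of 4.95e-10 at 12 h. It already stood well above its 0 h range in all 3 libraries at 3 h. CsaV3_6G051530 had 326, 315 and 359.7 FPKM at 0 h, 1294, 1152 and 1199.8 after 3 h, 5540.4, 7294 and 6713 after 12 h and 1662, 2655 and 1507 after 24 h, with a log2 difference of 4.28 ± 0.18 at 12 h (limma adjusted p = 1.13e-09). At 12 h it was the most abundant of all the antenna genes, in every 12 h library. CsaV3_1G032510 had 105, 101 and 113 FPKM at 0 h, 218, 162 and 177 after 3 h, 1814, 2418 and 2169.9 after 12 h and 380.2, 797 and 404 after 24 h. Most of its difference came between 3 h and 12 h: the log2 value was 0.79 ± 0.23 after 3 h, 4.31 ± 0.23 after 12 h, the largest of any member at any time, and 2.22 ± 0.23 after 24 h, or 1.88 without 24 h replicate 2, which lies far above the other libraries of that time.

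CsaV3_6G013800, the most abundant LHCB1 gene at 0 h, had 614, 635 and 664 FPKM at 0 h, 2531, 2234 and 2305 after 3 h, 4505, 5465 and 4964 after 12 h and 2598, 3514 and 2411 after 24 h. CsaV3_3G031580 had 421, 422 and 455 FPKM at 0 h, 1386, 1130.4 and 1171 after 3 h, 3471, 4405 and 4088 after 12 h and 1774, 2663 and 1806 after 24 h. Both were called at each time, with log2 values of 2.96 ± 0.12 and 3.20 ± 0.15 at 12 h, the smallest of the 5 genes. The make-up of the LHCB1 sum differed between times by more than the spread between libraries (the plot of LHCB1 shares). CsaV3_6G013800 made up 35.9% ± 0.622 (SD, n = 3) of it at 0 h, 36.3% ± 0.291 after 3 h, 22.8% ± 0.696 after 12 h and 31.1% ± 1.69 after 24 h. CsaV3_6G051530 made up 18.8% ± 0.522, 18.8% ± 0.304, 29.8% ± 0.630 and 20.9% ± 1.14, so that the order of these genes was turned at 12 h only. CsaV3_6G051520 went from 14.9% ± 0.0446 at 0 h to 23.1% ± 0.362 at 3 h, and CsaV3_1G032510 from 2.9% ± 0.231 at 3 h to 9.7% ± 0.222 at 12 h.

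**Figure D3:**
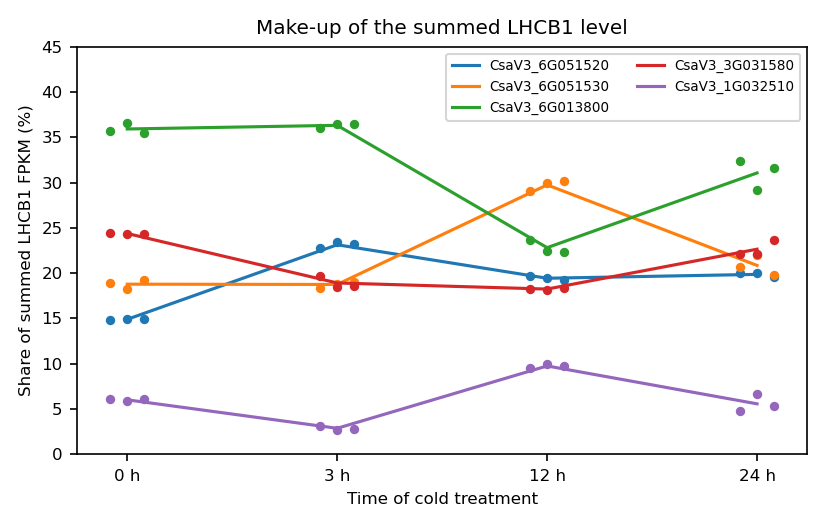
Share of each of the 5 LHCB1 genes in their summed FPKM (y axis, percent) by time of cold treatment (x axis), with points for libraries and lines through the means of 3. CsaV3_6G013800 (green) goes from 36.3% at 3 h to 22.8% at 12 h while CsaV3_6G051530 (orange) goes from 18.8% to 29.8%.

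LHCB2 (CsaV3_7G002620), which is phosphorylated when the antenna moves between the photosystems, was the most abundant photosystem II antenna gene at 0 h. It had 1150.4, 1189.8 and 1243 FPKM at 0 h, 1794, 1629 and 1633 after 3 h, 3603, 4176 and 4188 after 12 h and 2647, 3084 and 2604 after 24 h. Its difference at 3 h passed the adjusted p but not the fold (0.50 ± 0.09, limma adjusted p = 3.69e-04), and it was called at 12 h (1.74 ± 0.09) and 24 h (1.21 ± 0.09). LHCB3 (CsaV3_3G005950), far lower at 0 h, had 107, 111 and 114 FPKM at 0 h, 600.3, 529.9 and 528 after 3 h, 1283, 1709.8 and 1487 after 12 h and 527, 905 and 502 after 24 h. Its log2 differences were 2.31 ± 0.18, 3.74 ± 0.18 and 2.48 ± 0.18 at the 3 times, and 2.21 at 24 h without replicate 2. The genes of the major antenna thus came closer in level: the highest mean among the 7 was 11.2 times the lowest at 0 h, 12.7 times after 3 h, 4.36 times after 12 h and 5.39 times after 24 h.

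**Figure D4:**
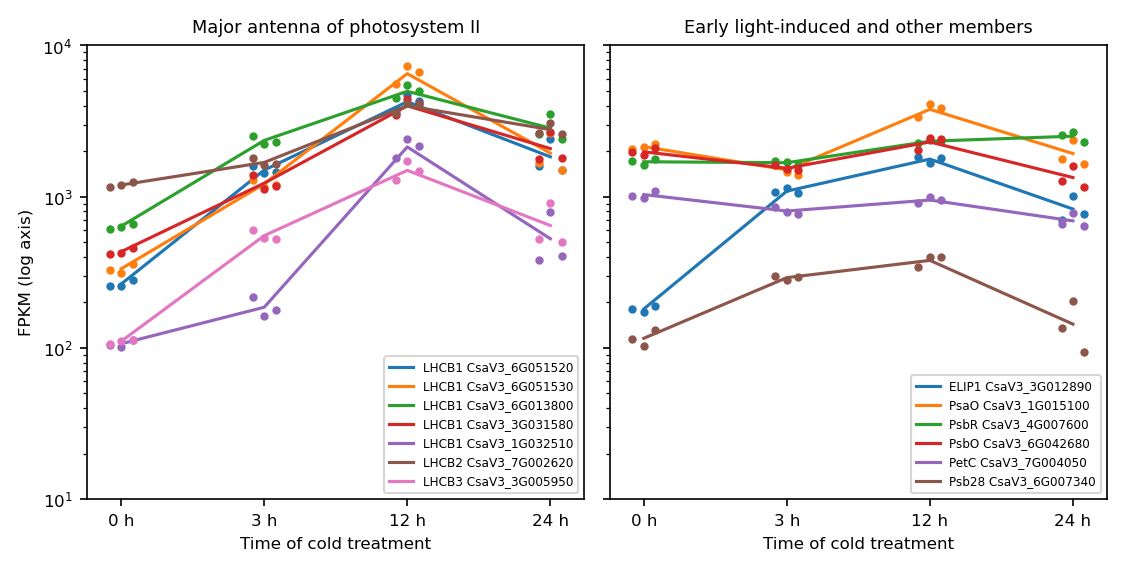
FPKM on a log axis by time of cold treatment, with points for libraries and lines through the means of 3. Left, the 7 genes of the major photosystem II antenna, of which LHCB1 CsaV3_6G051530 (orange) reaches 6516 FPKM at 12 h. Right, ELIP1, Psb28 and 4 members of other roles, of which ELIP1 (blue) goes from 181 FPKM at 0 h to 1773 at 12 h.

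The minor antenna proteins LHCB4, LHCB5 and LHCB6 sit between the major antenna and the photosystem II core. None of their 4 genes was called at 3 h or 24 h (15.3% and 31.3% of all genes, in either direction). All 4 were called higher at 12 h (9.62% of all genes). LHCB4 (CsaV3_4G026100) had 918, 908 and 1015 FPKM at 0 h, 1106, 1018 and 996 after 3 h, 2200.3, 2711 and 2583 after 12 h and 1087, 1474 and 999 after 24 h, with a log2 difference of 1.40 ± 0.13 at 12 h (limma adjusted p = 1.00e-06). Its 3 h and 24 h libraries overlap those of 0 h, and with quantile normalization the 12 h value is 0.97, under the fold threshold. LHCB5 (CsaV3_5G039350) had the largest difference of the 4, from a mean of 884 FPKM at 0 h to 4255 at 12 h (log2 2.26 ± 0.15). Of the LHCB6 genes, CsaV3_6G005340 had 562, 548 and 570.5 FPKM at 0 h, 623, 531 and 548 after 3 h, 1029, 1312 and 1133 after 12 h and 410.1, 585 and 423 after 24 h, and CsaV3_1G019610 had 151, 156 and 159 FPKM at 0 h, 231, 196.1 and 213 after 3 h, 361, 465 and 383 after 12 h and 156, 228 and 139 after 24 h. Their 12 h differences were 1.04 ± 0.13 and 1.36 ± 0.15. The first is the smallest difference against 0 h called among the antenna genes, and it becomes 0.80 with quantile normalization and 0.95 without 12 h replicate 2.

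The antenna of photosystem I, a belt of LHCA proteins on one side of that photosystem, was less uniform: 3 of its 7 genes were called higher after 3 h, 4 after 12 h and 2 after 24 h. The shares of all genes were 9.89%, 9.62% and 13.2%. LHCA1 (CsaV3_5G025740) had 106, 96.5 and 112 FPKM at 0 h, 435, 375 and 379.5 after 3 h, 1231, 1555 and 1306 after 12 h and 297, 469.5 and 298 after 24 h. Its log2 differences were 1.92 ± 0.16, 3.69 ± 0.16 and 1.72 ± 0.16, called at each time. The LHCA2 genes differed from each other. CsaV3_5G030270 had 327, 299.6 and 364 FPKM at 0 h, 713, 657 and 670.4 after 3 h, 1989.9, 2418 and 2236 after 12 h and 705, 1057 and 699 after 24 h and was called higher at each time (1.05 ± 0.14, 2.74 ± 0.14 and 1.29 ± 0.14), although without 0 h replicate 2 its 3 h value is 0.98. CsaV3_1G041230 had 285, 269 and 303 FPKM at 0 h, 193, 189 and 174 after 3 h, 258, 277 and 252 after 12 h and 248, 262 and 243 after 24 h. This gene alone among the 18 had its highest mean at 0 h, with log2 differences of -0.62 ± 0.07 after 3 h (limma adjusted p = 8.74e-06), -0.12 ± 0.07 after 12 h (0.130) and -0.18 ± 0.07 after 24 h (0.0268, or 0.02 after median-ratio rescaling).

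LHCA3 (CsaV3_1G043710), the most abundant antenna gene at 0 h, had 1555, 1603 and 1629 FPKM at 0 h, 2294, 2172 and 2201 after 3 h, 2924, 3581 and 3070.1 after 12 h and 1706, 2187 and 1703 after 24 h. All 12 h libraries lie above those of the other times, but its log2 difference of 0.99 ± 0.10 ended just under the fold threshold, and passed it after median-ratio rescaling (1.26) and without 0 h replicate 3, 12 h replicate 1 or 12 h replicate 3 (1.01 to 1.06). LHCA4 (CsaV3_1G002410) had 420.5, 415 and 441 FPKM at 0 h, 614, 524 and 512 after 3 h, 1555, 1930.1 and 1649 after 12 h and 424, 725 and 442 after 24 h and was called at 12 h alone (4.02 times the 0 h mean, limma adjusted p = 5.74e-07). Another locus with the LHCA4 orthology entry, CsaV3_1G005600, was the faintest antenna gene, at a mean of 2.91 FPKM at 0 h, 11.5 after 3 h, 27.6 after 12 h and 4.58 after 24 h, and was called at 3 h and 12 h. LHCA5 (CsaV3_2G027790), a low-abundance member of this antenna, had means of 78.6, 54.8, 104 and 74.3 FPKM and was not called at any time. The photosystem II antenna sum over the photosystem I antenna sum was 1.97 to 2.01 at 0 h, 2.90 to 3.03 after 3 h, 3.88 to 4.19 after 12 h and 3.96 to 4.28 after 24 h. The 3 later times all lie above 0 h, and 12 h and 24 h overlap each other.

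ELIP1 (CsaV3_3G012890) is the early light-induced gene of the set. Such proteins are relatives of the antenna that accumulate under light stress and bind pigment rather than harvest light. It had 181, 172 and 189 FPKM at 0 h, 1071, 1135 and 1059 after 3 h, 1839.9, 1678 and 1802 after 12 h and 705, 1013 and 768 after 24 h. At 3 h it was 6.02 times its 0 h mean, with a log2 difference of 2.59 ± 0.11 (limma adjusted p = 5.62e-09), the largest of all 47 members at that time. The values at 12 h and 24 h were 3.29 ± 0.11 and 2.18 ± 0.11 (2.02 without 24 h replicate 2), and no library of a later time came near the 0 h range. Its highest 12 h value was not in replicate 2.

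All 8 nuclear photosystem I subunits were higher at 12 h, by less than the fold threshold. They passed an adjusted p under 0.05, with no overlap between 12 h and 0 h libraries (26.3% of all genes were higher without overlap), and with log2 differences of 0.36 to 0.89. PsaO (CsaV3_1G015100), which lies where the mobile antenna docks, had 2058, 2136 and 2241 FPKM at 0 h, 1659.5, 1457 and 1397 after 3 h, 3381, 4098 and 3873 after 12 h and 1772, 2371 and 1642 after 24 h. Its 3 h libraries all lie under the 0 h range and its 12 h libraries all above it, at log2 -0.51 ± 0.13 (limma adjusted p = 0.00405) and 0.82 ± 0.13 (9.19e-05). PsaN (CsaV3_6G041600), a subunit on the lumen side, had 1133, 1092 and 1182 FPKM at 0 h, 1047, 942 and 892 after 3 h, 1685, 2136 and 1912 after 12 h and 881, 1323 and 841 after 24 h and a 12 h difference of 0.74 ± 0.15. Median-ratio rescaling took PsaO to 1.08 and PsaN to 1.01, while quantile normalization took them to 0.15 and 0.24.

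Of the other photosystem I subunits, PsaD, PsaF and PsaL were lower at 24 h at an adjusted p under 0.05. This is 3 of all 8 photosystem I subunits, against 43.5% of all genes. PsaD (CsaV3_3G013420), at which ferredoxin docks, had 820.4, 799 and 868 FPKM at 0 h, 901, 814 and 796 after 3 h, 1057, 1279 and 1227 after 12 h and 429, 606 and 377 after 24 h. It was 0.51 ± 0.14 at 12 h and -0.84 ± 0.14 at 24 h against 0 h (limma adjusted p = 1.71e-04), where all 3 libraries lie below the 0 h range, and -1.04 at 24 h without replicate 2. PsaF (CsaV3_1G046680), which helps to dock plastocyanin, was 0.81 ± 0.15 at 12 h and -0.39 ± 0.15 at 24 h. PsaL (CsaV3_2G009680), which lies beside the docking site of the mobile antenna, was 0.51 ± 0.12 and -0.37 ± 0.12. For PsaF and PsaL, replicate 2 of 24 h lies within the 0 h range. Their 24 h values were -0.18 and -0.16 after median-ratio rescaling, and -0.57 and -0.51 without replicate 2. PsaK, PsaG and PsaH, small membrane subunits, were 0.89, 0.68 and 0.36 at 12 h, and their 24 h differences of 0.18, 0.02 and -0.19 did not pass the adjusted p. Without 24 h replicate 2, PsaH (-0.29, limma adjusted p = 0.0122), PsaN (-0.40, 0.00251) and PsaO (-0.33, 0.00668) passed it as lower too, while median-ratio rescaling of all libraries put these 3 genes at 0.02, 0.01 and 0.04.

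The nuclear photosystem II subunits did not share a course. PsbR (CsaV3_4G007600), which helps to hold the oxygen-evolving enhancers, had 1709, 1621 and 1777 FPKM at 0 h, 1714, 1701 and 1618 after 3 h, 2282, 2368 and 2331 after 12 h and 2550.4, 2683 and 2305 after 24 h. It alone among the reaction centre genes had its highest mean at 24 h, at log2 0.56 ± 0.07 (limma adjusted p = 1.20e-05), and its 12 h difference of 0.45 ± 0.07 becomes -0.05 with quantile normalization. PsbW, which stabilises the complex of photosystem II with its antenna, has 2 genes. CsaV3_2G004030 had 1688, 1612 and 1779 FPKM at 0 h, 1135, 1061 and 990.5 after 3 h, 1271, 1419.7 and 1381 after 12 h and 1001, 1191 and 958 after 24 h, below 0 h in every later library, at log2 -0.67 ± 0.09, -0.32 ± 0.09 and -0.69 ± 0.09, each with an adjusted p under 0.05. Median-ratio rescaling took the 12 h value to -0.05. The other PsbW gene, CsaV3_7G027520, was -0.61 ± 0.09 at 3 h but 0.18 ± 0.09 and -0.14 ± 0.09 later, neither of which passed the adjusted p. Without 24 h replicate 2 its 24 h value was -0.22 (limma adjusted p = 0.0155), and after median-ratio rescaling 0.07. PsbS (CsaV3_6G034480), which senses lumen acidity and lets photosystem II shed excess energy as heat, was higher at each time at an adjusted p under 0.05 (0.39 ± 0.09, 0.51 ± 0.09 and 0.24 ± 0.09), but without 24 h replicate 2 its 24 h value was 0.12 (limma adjusted p = 0.0622), and with quantile normalization its 12 h value was 0.03.

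The PsbY locus of the set, CsaV3_2G025120, was at 0 FPKM in 11 libraries and at 1.23 in 12 h replicate 2, and was not tested. Another gene with the PsbY orthology entry but described as uncharacterized, CsaV3_5G030690, was expressed at 169.8 ± 9.56 FPKM at 0 h and 408 ± 32.5 at 12 h (SD, n = 3) and was called higher at 12 h, at log2 1.26 ± 0.14 (limma adjusted p = 5.22e-06). A second gene with that entry, CsaV3_2G025110, described as dentin sialophosphoprotein-like, had means of 33.8 FPKM at 0 h, 62.5 at 12 h and 23.7 at 24 h. It was not called, at log2 0.87 ± 0.18 at 12 h and -0.56 ± 0.18 at 24 h (limma adjusted p = 0.0147). At 24 h CsaV3_5G030690 was 0.05 ± 0.14. Both were looked up after the values of the listed locus were seen.

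The oxygen-evolving enhancers hold the manganese cluster of photosystem II and its calcium and chloride in place. All 3 were lower at 3 h at an adjusted p under 0.05, as were 26.2% of all genes, without reaching the fold threshold. PsbO (CsaV3_6G042680) had 1960.4, 1876 and 2106 FPKM at 0 h, 1612, 1517 and 1496 after 3 h, 2032, 2454 and 2418 after 12 h and 1268, 1594 and 1154 after 24 h, with log2 differences of -0.36 ± 0.11, 0.21 ± 0.11 and -0.58 ± 0.11. PsbP (CsaV3_4G007520) had 1137, 1084 and 1194 FPKM at 0 h, 979, 894 and 888 after 3 h, 1413, 1671 and 1674 after 12 h and 971, 1249.9 and 943 after 24 h, with -0.31 ± 0.11, 0.48 ± 0.11 and -0.12 ± 0.11. At 24 h PsbO was below 0 h in all 3 libraries, while for PsbP only replicate 2 of 24 h lay above the lowest 0 h library. Without it PsbP was -0.25 (limma adjusted p = 0.0157), and after median-ratio rescaling 0.09. With quantile normalization the 12 h values of PsbO and PsbP were -0.15 and 0.01. PsbQ (CsaV3_1G011330) went furthest, with -0.53 ± 0.14 at 3 h and 0.83 ± 0.14 at 12 h.

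The electron carriers between the photosystems were lower at 3 h and 24 h at an adjusted p under 0.05, as were 26.2% and 43.5% of all genes. PetC (CsaV3_7G004050), the Rieske iron-sulfur protein of the cytochrome b6-f complex, had 1017, 987 and 1095 FPKM at 0 h, 853, 792 and 767 after 3 h, 907, 995 and 951 after 12 h and 658, 776 and 641 after 24 h, with log2 differences of -0.36 ± 0.08, -0.12 ± 0.08 and -0.58 ± 0.08. PetE (CsaV3_3G046150), the copper protein plastocyanin, had 909.5, 874 and 978 FPKM at 0 h, 641, 592 and 576 after 3 h, 1111, 1362 and 1204 after 12 h and 579, 907 and 565 after 24 h, with -0.61 ± 0.15, 0.41 ± 0.15 and -0.46 ± 0.15. All 3 libraries of PetC at 24 h lie below the 0 h range, but for PetE replicate 2 of 24 h lies within it. The 24 h values of PetC and PetE were -0.38 and -0.26 after median-ratio rescaling, and -0.67 and -0.68 without replicate 2.

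Of the 4 genes of assembly and repair, Psb28 (CsaV3_6G007340), which binds photosystem II during its assembly, was the only one called. It had 114, 103 and 131 FPKM at 0 h, 298, 281 and 296 after 3 h, 341, 397 and 399 after 12 h and 134, 203 and 93.3 after 24 h. Its log2 differences of 1.34 ± 0.21 at 3 h (limma adjusted p = 1.83e-04) and 1.71 ± 0.21 at 12 h (1.41e-05) make it the only member outside the antenna and ELIP1 that was called against 0 h. At 24 h its libraries overlap 0 h, at 0.25 ± 0.21, or -0.04 without replicate 2. HCF136 (CsaV3_7G030600), needed to build the photosystem II reaction centre, had 229, 211 and 228 FPKM at 0 h, 182, 168 and 169 after 3 h, 179, 194 and 183 after 12 h and 204, 231 and 199 after 24 h, with -0.36 ± 0.07 at 3 h and -0.26 ± 0.07 at 12 h, and the 12 h value is 0.00 after median-ratio rescaling. Of the Psb27 genes, which act in photosystem II repair, Psb27-H1 (CsaV3_7G004300) was 0.79 ± 0.15 and Psb27-H2 (CsaV3_7G022520) 0.30 ± 0.10 at 12 h.

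The 7 loci named for plastid genes (psbA, psbB, psbC, psbD, psbE, psaA and petB) have identifiers of numbered chromosomes (4) or of unplaced sequence (3), while RefSeq lists all 7 gene names on the plastid genome. Their FPKM may come from plastid transcripts, and the treatment of such reads is not stated by the study. They summed to 160.0 to 172 FPKM at 0 h, 124 to 133 after 3 h, 109.8 to 121 after 12 h and 94.3 to 129 after 24 h, all later libraries below 0 h. The locus named psbA (CsaV3_1G025480) had 60.6, 59.6 and 54.4 FPKM at 0 h, 58.6, 63.5 and 56.8 after 3 h, 46.9, 41.8 and 41.8 after 12 h and 47.2, 36.5 and 47.8 after 24 h. The locus named petB (CsaV3_4G007360) had 60.1, 58.2 and 55.4 FPKM at 0 h, 34.0, 35.1 and 32.8 after 3 h, 39.5, 40.5 and 41.6 after 12 h and 36.9, 29.8 and 41.9 after 24 h. None of the 7 was called at any time, and at an adjusted p under 0.05 and any fold 3 were lower after 3 h, 4 after 12 h and 4 after 24 h (3 without replicate 2), with none higher, against 26.2%, 44.7% and 43.5% of all genes. Their median log2 differences were -0.22, -0.47 and -0.42 at the 3 times. Median-ratio rescaling took these medians to -0.26, -0.23 and -0.22, and quantile normalization to -0.38, -0.25 and -0.33. At 24 h, replicate 2, the highest library for the antenna genes, had the lowest plastid-locus sum.

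Between the later times, the antenna genes went up from 3 h to 12 h and down from 12 h to 24 h. Of the 18, 14 were called higher at 12 h than at 3 h, when 6.00% of all genes were, and 12 were called lower at 24 h than at 12 h, when 5.20% of all genes were. The medians were 1.34 and -1.25, against -0.29 and 0.03 over all genes. All 18 were higher at 12 h than at 3 h at an adjusted p under 0.05, although LHCA3 is -0.11 with quantile normalization. From 12 h to 24 h, 17 were lower, the exception being LHCA2 CsaV3_1G041230 (-0.06 ± 0.07), and LHCB2 (-0.52 ± 0.09) is 0.10 with quantile normalization. The lowest values were LHCA4 CsaV3_1G005600 (-2.46 ± 0.16), LHCB1 CsaV3_1G032510 (-2.09 ± 0.23) and LHCA1 (-1.97 ± 0.16).

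What was left at 24 h of the difference between 0 h and 12 h varied between genes. In mean FPKM, LHCB2 kept 56.7% of it (51.2% without 24 h replicate 2), LHCB1 CsaV3_6G013800 50.8% (43.0%) and ELIP1 40.7% (34.9%). LHCB4 kept 15.4% (6.20%), LHCA4 CsaV3_1G002410 8.16% (0.598%), and LHCB6 CsaV3_6G005340 ended below its 0 h mean (-14.6%, or -24.0%). LHCB1 CsaV3_6G051530 kept 26.0% (20.2%), LHCB1 CsaV3_1G032510 20.8% (14.1%), LHCB5 of the minor antenna 23.7% (15.9%) and LHCA2 CsaV3_5G030270 26.0% (19.8%), so the shares of the antenna types overlap. All 7 genes of the major photosystem II antenna were called higher at 24 h than at 0 h, as were LHCA1 and LHCA2 CsaV3_5G030270, and no gene of the minor antenna was. LHCB5 came nearest, at 0.90 ± 0.15, and passed the fold threshold after median-ratio rescaling (1.10).

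The reaction centre genes took the same direction over these intervals by smaller steps. Of the 15 tested, 14 were higher at 12 h than at 3 h at an adjusted p under 0.05 (19.2% of all genes) and 14 were lower at 24 h than at 12 h (25.2%), with medians of 0.78 and -0.71. With quantile normalization, PsbR (-0.13) and PsbW CsaV3_2G004030 (-0.03) turned in the first interval and PsbS (0.08) in the second. The 4 called higher in the first (6.00% of all genes) were PsbQ (1.36 ± 0.14), PsaO (1.33 ± 0.13), PsaK (1.10 ± 0.10) and PsaF (1.05 ± 0.15). The 2 called lower in the second (5.20% of all genes) were PsaD (-1.36 ± 0.14) and PsaF (-1.19 ± 0.15), and without 24 h replicate 2 there were 5. Of the loci named for plastid genes, none of the 7 passed the adjusted p between 12 h and 24 h.

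Of 44 further genes that the KEGG column places in photosynthesis or antenna proteins, 39 were tested, and 1 higher and 3 lower were called after 3 h, 3 higher and 5 lower after 12 h and 3 higher and 7 lower after 24 h. Over all genes 15.3%, 26.3% and 31.3% were called in either direction. The medians of the 39 were -0.24, -0.24 and -0.32. The gene with the largest value was CsaV3_7G006340, a dnaJ-type chaperone, at 2.42 ± 0.29 at 3 h and 2.04 at 12 h. It was near the floor, with means of 0.0645 FPKM at 0 h, 2.62 after 3 h, 1.81 after 12 h and 0.735 after 24 h. At such levels the log2 values depend on the added 0.5. The 44 include 8 chloroplast ATP synthase genes, which make ATP from the proton gradient. Of these, 1 gamma chain gene (CsaV3_6G049050) was called lower at each time (-1.10, -1.63 and -1.30) and none higher. It had a mean of 31.9 FPKM at 0 h. The gamma chain gene CsaV3_1G010750, at 452 FPKM, was 0.09, 0.78 and 0.03. At an adjusted p under 0.05 and any fold, 1 of the 8 was higher and 4 lower after 3 h. After 12 h 4 were higher and 4 lower, and after 24 h 1 and 5. The shares of all genes were 30.4% and 26.2%, 24.5% and 44.7%, and 29.1% and 43.5%. The lower ones at each time included CsaV3_UNG203700, CsaV3_UNG207830 and CsaV3_UNG208300, of unplaced sequence and described as CF1 beta, CF0 A and CF1 alpha. These were faint, with means of 14.7, 5.86 and 2.75 FPKM at 0 h. The higher one at 3 h and 24 h, CsaV3_3G005120, was near the floor (0.483 FPKM at 0 h). The delta and b' genes, at 279 and 510 FPKM, were 0.50 and 0.52 at 12 h and -0.44 and -0.20 at 24 h. The 8 genes of ferredoxin and its NADP reductase include some described as root types. Of the 8, 0 higher and 0 lower were called after 3 h, 0 higher and 2 lower after 12 h and 1 higher and 2 lower after 24 h. In either direction this was 0%, 25.0% and 37.5% of them, against 15.3%, 26.3% and 31.3% of all genes. The root isozyme of the reductase, CsaV3_6G052330, was among those called lower at 12 h (-1.25). The leaf ferredoxin CsaV3_3G019220, at a mean of 3903 FPKM at 0 h, was -0.41, 0.13 and -0.01 at the 3 times.

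Chlorophyll has to be made for new antenna proteins to be stable, and 18 genes of its synthesis were compared. None was called after 3 h, 2 were called higher after 12 h, and 2 higher and 2 lower were called after 24 h, when 9.62% of all genes were called higher at 12 h and 13.2% higher and 18.1% lower at 24 h. The list had medians of -0.20, 0.35 and -0.03. Protochlorophyllide reductase (CsaV3_4G033870), the light-dependent step of the pathway, was 2.25 ± 0.12 at 12 h and 1.67 ± 0.12 at 24 h. Glutamate-1-semialdehyde aminomutase (CsaV3_7G007260), an early step, was 1.20 ± 0.08 and 1.53 ± 0.08. Chlorophyllide a oxygenase (CsaV3_6G034450), which makes the chlorophyll b that only antenna proteins bind, was -1.54 ± 0.07 at 24 h, and glutamyl-tRNA reductase (CsaV3_2G030530), which controls entry to the pathway, was -1.05 ± 0.10. Of 18 Calvin cycle genes, which fix carbon with the products of the light reactions, 1 higher and 1 lower were called after 3 h, 2 higher and 0 lower after 12 h and 1 higher and 0 lower after 24 h, against 15.3%, 26.3% and 31.3% of all genes in either direction, with medians of -0.24, 0.31 and -0.02.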

How the data were processed

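Leaf RNA of 12 libraries, 3 at each of 4 times, was analysed from the deposited table of all times. The authors trimmed reads with cutadapt 1.9, checked them with FastQC, aligned them by HISAT2 on genome version V3 of Chinese Long, and gave FPKM per gene in the deposited table. Not given in the sources used here are the program behind FPKM, how RNA was selected and how reads that map to several genes were treated. A value of 0.0001 stands for no reads and was set to 0. The 5 deposited tables of pairs of times, which hold the authors' fold changes, p-values and q-values, were not used, and 0 columns belonged to unknown samples.

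Groups came from the sample labels. Genes at 0.5 FPKM or more in at least 3 libraries were tested on log2(FPKM + 0.5) with limma 3.58.1 (R 4.3.3; trended, robust, all 12 libraries in 1 fit, Benjamini-Hochberg adjustment over 17497 genes). A fold change on this scale understates the change of low genes. An exact permutation test of 3 against 3 libraries cannot go below 0.1, so none was used. Python 3.11.15 (matplotlib 3.10.9, numpy 2.4.6, pandas 2.3.3) served for sums, shares and plots, and the fit was tested on simulated data. Depth was compared between libraries from ratios of values under 0.1 FPKM. Members, roles and comparison lists were chosen with earlier results of these data known. Short names follow KEGG orthology entries or descriptions. Values in every library are given for ELIP1, the 2 members of each role with the highest mean at 0 h, and the 3 members with the highest and the 3 with the lowest called differences at each time. LHCB1 CsaV3_6G013800, PsaD (CsaV3_3G013420) and CsaV3_1G041230 are given in every library as well, outside this rule, and are not among the 26 named members. CsaV3_1G041230 was added after its values were seen. Alternatives were other pseudocounts (0.1 and 1), filters, scalings, thresholds, a plain limma fit, pairwise fits, a replicate block and each library left out, and the sums at 24 h without replicate 2 were chosen after seeing the data.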

Additional observations from a re-analysis of the deposited data

Results flagged for a closer look

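In 5 members, none of them an antenna gene, the difference against 0 h passed an adjusted p under 0.05 on opposite sides of 0 at a pair of times, and the direct limma comparison of those times was called. The share of all genes that did so was not counted, so the number cannot be set against it. PsaD (CsaV3_3G013420) was 0.51 at 12 h and -0.84 at 24 h, a difference between the times of -1.36 ± 0.14 (SE, limma adjusted p = 9.6e-06). PsaF (CsaV3_1G046680) was 0.81 at 12 h and -0.39 at 24 h, a difference of -1.19 ± 0.15 (limma adjusted p = 3.6e-05). After median-ratio rescaling the 24 h value of PsaF was -0.18. The other 3 had opposite values at 3 h and 12 h. PsaO (CsaV3_1G015100) was -0.51 at 3 h and 0.82 at 12 h, a difference of 1.33 ± 0.13 (limma adjusted p = 1.9e-06). PsbQ (CsaV3_1G011330) was -0.53 and 0.83, a difference of 1.36 ± 0.14 (limma adjusted p = 3.29e-06). PetE (CsaV3_3G046150) was -0.61 and 0.41, a difference of 1.02 ± 0.15 (limma adjusted p = 8.43e-05). Without rescaling, none of these 10 differences against 0 h reached a log2 value of 1 or -1. Median-ratio rescaling took the 12 h values of PsaO, PsaF and PsbQ to 1.08, 1.07 and 1.10. With quantile normalization the 12 h values of PsaO and PetE were 0.15 and 0.13. Their differences between 3 h and 12 h were then 0.65 and 0.68, under the fold threshold. Those of PsbQ, PsaD and PsaF were then 1.11, -1.23 and -1.01. LHCB6 CsaV3_6G005340 (1.04 at 12 h, -0.26 at 24 h) missed the adjusted p at 24 h (limma adjusted p = 0.083) but not without 24 h replicate 2 (-0.43, 0.00157). The times share the 0 h libraries. Groups of 3 libraries were too small to look for a stray library by its gap to the others.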

How the results depend on the processing

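Of 1638 values recomputed for 26 named members in 78 comparisons, 1628 stayed on their side of the threshold, 4 lost the call, 6 gained it and 0 called values reversed. For many of these values the log2 difference could not move. That holds for the filters, the plain and pairwise fits, the block, and leaving out a library of neither time compared. There only the adjusted p could change, so the total overstates the number of separate checks. Among differences that were not called, 19 values of 13 comparisons had the other sign, all reported at a size of 0.45 or less. Those 4 were LHCB4 and LHCB6 CsaV3_6G005340 at 12 h with quantile normalization (0.97 and 0.80), the same LHCB6 gene without 12 h replicate 2 (0.95) and LHCA2 CsaV3_5G030270 at 3 h without 0 h replicate 2 (0.98). Counts of called genes are given next in the order 3 h, 12 h and 24 h against 0 h, 12 h against 3 h and 24 h against 12 h. At any fold, 32, 40, 28, 39 and 38 of all members passed, 15 antenna genes passed at 3 h, and 8, 13, 7, 14 and 14 reaction centre genes passed. With a log2 threshold of 1.5, 6 members (6 antenna, 0 reaction centre) passed from 3 h to 12 h and 5 (5 and 0) from 12 h to 24 h. With median-ratio rescaling, 5 reaction centre genes were called at 12 h and 8 from 3 h to 12 h. With quantile normalization, 11 members and 1 reaction centre gene were called from 3 h to 12 h. Leaving out each library in turn gave 9 to 10, 16 to 18, 10 to 11, 16 to 21 and 15 to 22 members, 7 to 8, 14 to 16, 9 to 10, 13 to 14 and 11 to 13 antenna genes, and 0 to 0, 0 to 0, 0 to 1, 3 to 6 and 2 to 5 reaction centre genes. The highest reaction centre counts came without 24 h replicate 2 (1 and 5) and, for 12 h against 3 h, without 3 h replicate 1 (6).

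Same-numbered libraries did not deviate together more than others (correlations of -0.164 to 0.158, against -0.21 to 0.145 for different numbers). This gave no sign of pairing by replicate number but cannot exclude it, as how samples were handled together is not stated. With each number once at each time, a block on it cannot alter a log2 difference, only its adjusted p. With the replicate number as a block, 10, 17, 10, 19 and 16 members were called, as without it, and the counts were also equal for antenna (8, 15, 9, 14 and 12) and reaction centre genes (0, 0, 0, 4 and 2). Read depth is unknown, so no counting interval is given.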
